A study of Homo sapiens with 8 samples.

Results

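The genotype contrast examined here was SYK-KO EGF against SYK-WT EGF, that is, cells lacking SYK against cells with wild-type SYK both treated with 50 ng/ml of EGF (epidermal growth factor) over 24 h. OVISE, the cell line used throughout, was established from a clear cell carcinoma of the human ovary. Each group held 2 libraries, and the untreated SYK-KO and SYK-WT groups, also of 2 libraries each, were used to see which genotype differences were smaller or absent without EGF. The features were the 12112 of 27757 listed loci that reached 1 FPKM in at least 2 of the 8 libraries (FPKM, fragments scaled to transcript length and library size). Per the labels' protocols, the knockout cells received a nickase form of Cas9 and 2 guides aimed at exon 2 of SYK, were selected with puromycin and were grown from single-cell clones. The labels do not say how many clones went into SYK-KO, whether SYK-WT cells had passed through the same transfection, selection and cloning, or whether separate cultures lie behind the 2 libraries of each group. The p-values therefore measure only the spread between these libraries, and an effect of the gene cannot be told apart from a trait of the clone.

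SYK is a cytoplasmic tyrosine kinase with a pair of SH2 domains, best known from immune receptor signalling and also found in some epithelial cells and carcinomas. EGF binds EGFR, a receptor tyrosine kinase that passes its signal through adaptor proteins to the RAS, ERK and PI3K pathways, to AP-1 transcription factors and to the genes that drive cells into S phase. The study asks how SYK activity shapes the part of the transcriptome that depends on EGFR, so the genotype difference under EGF is one arm of that question.

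The guide pair defines the knockout and is shown 5′ to 3′ in lower case, followed in capitals by the 3 genomic bases next to the target (the NGG motif that Cas9 needs), read from the GENCODE transcript of SYK on GRCh38.

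top strand guide: cggacagggcgaagccacccAGG

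bottom strand guide: cacaccactacaccatcgagCGG

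On GRCh38 the targets lay at chr9:90844042-90844061 on the minus strand and chr9:90844080-90844099 on the plus strand. Both lay in exon 2 in all 5 SYK transcripts that held them, and in coding sequence in at least 1 of those. SYK itself (hg19 chr9:93563962-93660842) had 2.80 and 3.16 FPKM in SYK-KO EGF, against 3.88 and 3.62 FPKM in SYK-WT EGF. The groups did not overlap, and the difference was -0.26 ± 0.09 (SE) on the log2(FPKM + 1) scale (adjusted p = 0.0436, limma with Benjamini-Hochberg adjustment over all 12112 loci). Untreated SYK-KO cells had 3.11 and 3.43 FPKM and untreated SYK-WT cells 4.91 and 5.30 FPKM. The transcript was thus still measured in every SYK-KO library, and its level does not test the protein, whose loss the labels report from immunoblotting. The call with EGF was lost without any 1 of 6 of the libraries, both SYK-WT libraries being the exceptions, with adjusted p-values between 0.0621 and 0.215, and the q-value in the authors' deposited table was 0.200.

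All log2 values in the text are differences of log2(FPKM + 1), SYK-KO minus SYK-WT, and understate the change of genes near or below 1 FPKM; folds are ratios of mean FPKM. A gene was called when its adjusted p fell below 0.05. By range alone the groups did not overlap at 78.9% of loci, with SYK-KO EGF above at 37.7% and below at 41.2%. With EGF, 5277 loci were called (43.6%), 2553 higher (21.1%) and 2724 lower (22.5%) in SYK-KO EGF. Most of these differences were modest: 411 loci (3.39%) were called with a size of at least 1, 251 of them higher (2.07%) and 160 lower (1.32%). In the untreated cells 4902 loci were called (40.5%), 2461 higher and 2441 lower in SYK-KO. The authors' deposited table held fewer: 2911 of the tested loci had a q-value under 0.05 with EGF and 2609 untreated. Of the 2911, 1581 were higher and 1330 lower in SYK-KO EGF, and 2810 were also called here in the same direction. The 2 comparisons share no library, although they share the estimate of the spread, and 3754 loci were called in both in the same direction, which is 71.1% of the calls with EGF and 76.6% of the untreated calls. Among those 3754 the median absolute difference was 0.47 with EGF and 0.46 untreated. The count with EGF rested on every library, since it lay between 2952 and 3372 without any 1 of the 4 EGF libraries.

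**Figure D1:**
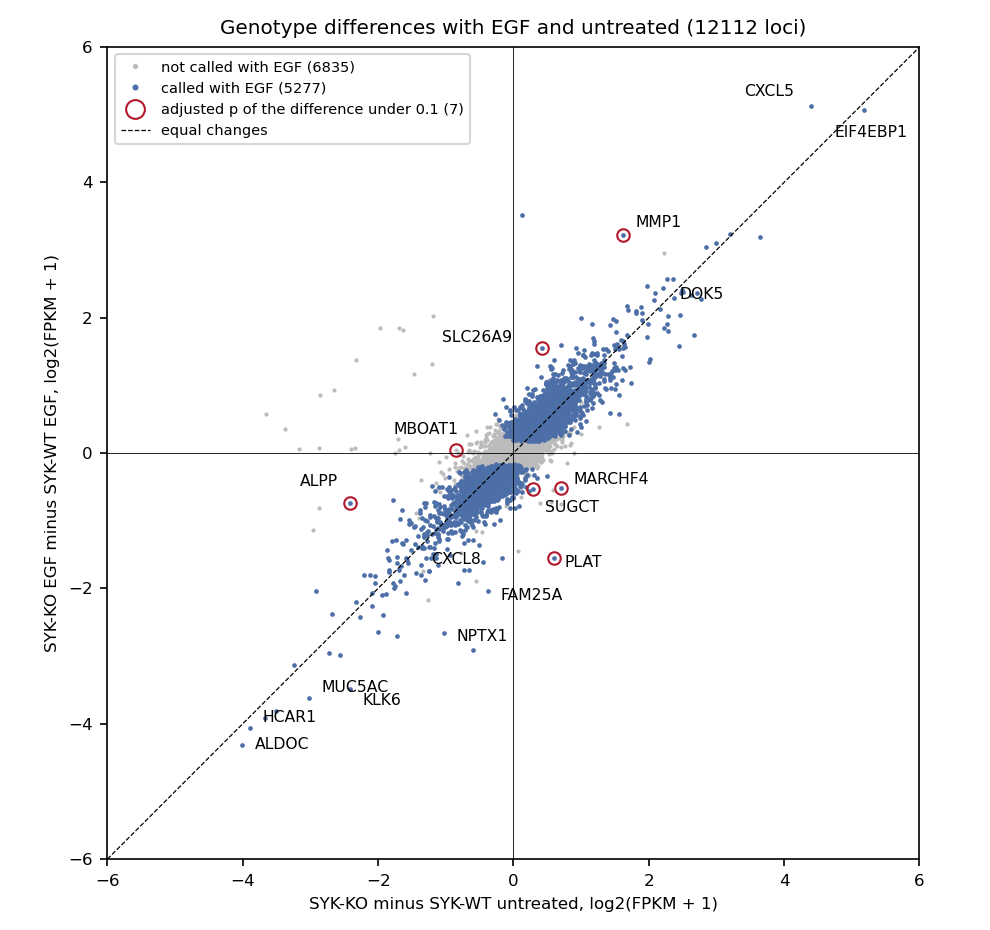
Each point is a locus, with the SYK-KO minus SYK-WT difference of log2(FPKM + 1) in cells with EGF on the vertical axis and in untreated cells on the horizontal axis; blue points were called with EGF and the dashed line marks equal differences. Most large differences lie along the line, while MMP1 and SLC26A9 lie above it and PLAT, CXCL8 and FAM25A below it.

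The genotype difference itself was compared between the conditions, as the difference with EGF minus the difference untreated. By that test 1 of 12112 loci passed (0.00826%), namely PLAT, whereas 1070 (8.83%) had an unadjusted p under 0.05. Another 6 genes had an adjusted p under 0.1, and they are described here although chosen after their values were seen: MMP1, SLC26A9, ALPP, MARCHF4, MBOAT1 and SUGCT. The untreated SYK-WT pair bears on all of these comparisons, because the median absolute log2 difference between its libraries was 0.15, while that of each other group lay between 0.0669 and 0.0828. A group left with 1 library adds nothing to the estimate of the spread, so leaving out either untreated SYK-WT library takes this wider pair out of it. The test gave many more calls then, PLAT and the 6 others among them. Without any 1 of the remaining libraries the test called none of the 6, and without SYK-WT EGF replicate 1 it called no locus, PLAT included.

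PLAT encodes tissue-type plasminogen activator, a secreted protease that turns plasminogen into plasmin. It stood at 5.69 and 4.84 FPKM in SYK-KO EGF, against 17.6 and 17.2 FPKM in SYK-WT EGF. In untreated cells it stood at 3.88 and 3.42 FPKM in SYK-KO, against 2.16 and 1.99 FPKM in SYK-WT. The genotypes thus lay in opposite order in the 2 conditions, with SYK-WT EGF far above the other 3 groups. PLAT was 3.31-fold lower in SYK-KO cells with EGF (-1.56 ± 0.09, adjusted p = 2.92e-05) and 1.76-fold higher in SYK-KO cells untreated (0.59, adjusted p = 0.00205). The difference between the 2 was -2.15 ± 0.13 (adjusted p = 0.00259, limma), and it lay between -2.25 and -2.05 without any 1 of the 8 libraries.

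MARCHF4, a membrane-bound E3 ubiquitin ligase, and SUGCT, a mitochondrial enzyme of glutarate metabolism, had the same pattern at a smaller size. MARCHF4 had 10.9 and 8.72 FPKM in SYK-KO EGF, against 14.4 and 14.2 FPKM in SYK-WT EGF, and untreated it had 6.15 and 5.51 FPKM in SYK-KO, against 3.15 and 3.24 FPKM in SYK-WT. SUGCT had 19.1 and 18.7 FPKM in SYK-KO EGF, against 27.9 and 27.7 FPKM in SYK-WT EGF, and untreated 12.2 and 11.2 FPKM in SYK-KO, against 9.66 and 9.13 FPKM in SYK-WT. Both were called lower in SYK-KO with EGF (-0.51 and -0.53) and higher untreated (0.70 and 0.28), and the differences between the conditions were -1.21 and -0.82 (adjusted p = 0.0694 for each). In all, 7 loci were called in opposite directions in the 2 conditions: these 3 genes, the kinase HIPK2, the adaptor subunit AP3S1, the divergent transcript LHX1-DT and the readthrough pseudogene CCZ1P-OR7E38P, each lower with EGF and higher untreated in SYK-KO. The last 4 had differences with EGF between -0.38 and -0.24, and each of their calls with EGF was lost without at least 2 of the libraries taken singly.

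SLC26A9, an epithelial chloride transporter, was highest in SYK-KO EGF, with 2.92 and 2.64 FPKM there, against 0.314 and 0.262 FPKM in SYK-WT EGF. Untreated it had 0.477 and 0.639 FPKM in SYK-KO, against 0.171 and 0.152 FPKM in SYK-WT. The groups were apart in both conditions, the ratio of means was 9.64 with EGF and 3.45 untreated, and the difference between the conditions was 1.13 ± 0.13 (adjusted p = 0.0694). SLC26A9 passed the filter on low values only through the 2 SYK-KO EGF libraries, where it is high, so that it was tested is no sign of a difference, and its adjusted p was 0.328 with a pseudocount of 0.1 and between 0.012 and 0.486 over all alternatives. ALPP and MBOAT1 differed less with EGF than untreated. ALPP, placental alkaline phosphatase, had 0.0288 and 0.0511 FPKM in SYK-KO EGF, against 0.677 and 0.776 FPKM in SYK-WT EGF, and untreated 0.137 and 0.0856 FPKM in SYK-KO, against 4.24 and 5.75 FPKM in SYK-WT. ALPP passed the filter only through the 2 untreated SYK-WT libraries, where it is high, so that it was tested is no sign of a difference. With a pseudocount of 0.1 its adjusted p of the difference was 0.29 (limma). MBOAT1, a lysophospholipid acyltransferase, had 4.37 and 4.42 FPKM in SYK-KO EGF, against 4.31 and 4.18 FPKM in SYK-WT EGF (0.04, adjusted p = 0.677), while untreated SYK-KO cells had 5.16 and 5.45 FPKM, against 10.8 and 10.0 FPKM in untreated SYK-WT cells.

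MMP1, interstitial collagenase, had 49.0 and 63.6 FPKM in SYK-KO EGF, against 5.75 and 4.54 FPKM in SYK-WT EGF, and untreated 2.93 and 3.13 FPKM in SYK-KO, against 0.272 and 0.344 FPKM in SYK-WT. The difference was 3.22 ± 0.14 with EGF (adjusted p = 6.82e-06) and 1.62 untreated (adjusted p = 0.000148), which differed by 1.59 (adjusted p = 0.0694). As a ratio of means the genotypes were 10.9-fold apart with EGF and 9.84-fold apart untreated, and with a pseudocount of 0.1 the difference between conditions was 0.48 (adjusted p = 0.628). With the pseudocount of 1, the difference between conditions lay between 1.41 and 1.78 without any 1 of the 8 libraries. The locus (hg19 chr11:102654407-102714420) is also given to MMP3 and WTAPP1, which have rows of their own, so reads of these neighbours cannot be separated from it with certainty.

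**Figure D2:**
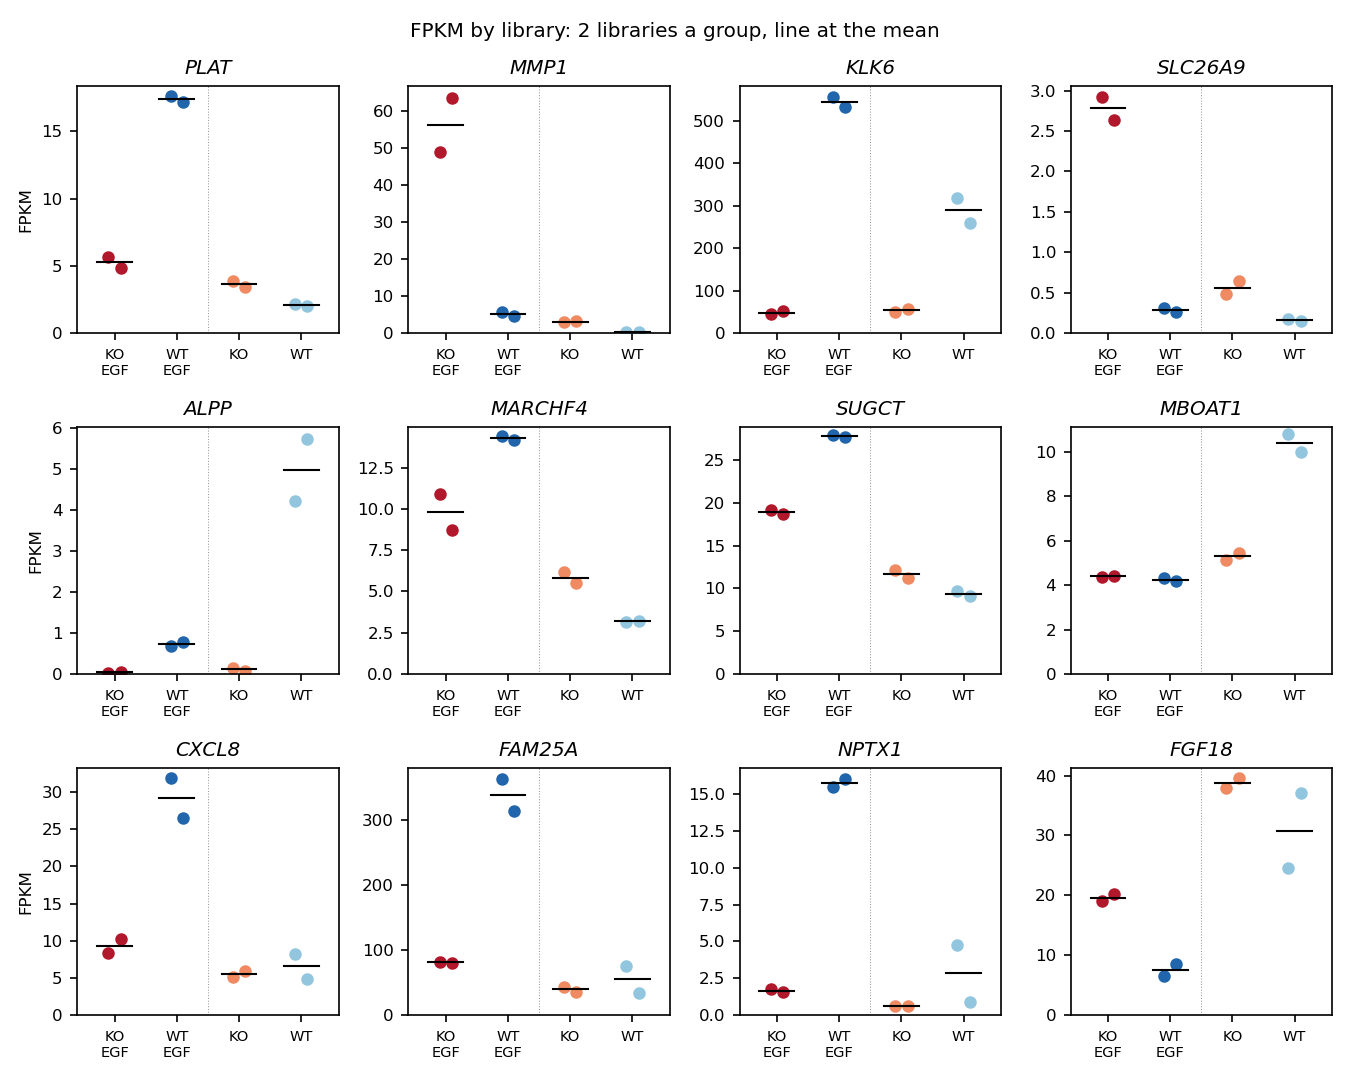
FPKM of 12 genes in each library (dots) with the group mean (line), in the order SYK-KO EGF, SYK-WT EGF, untreated SYK-KO and untreated SYK-WT; each panel has its own vertical axis from 0. PLAT, CXCL8, FAM25A and NPTX1 were highest in SYK-WT EGF, and MMP1 and SLC26A9 in SYK-KO EGF, while the untreated SYK-WT libraries differed from each other in NPTX1, FAM25A, CXCL8 and FGF18.

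A broader group was described by calls alone: 829 loci (6.84%) were called with EGF, not called untreated, and had an untreated difference no more than 50% of that with EGF in its direction. Of these, 367 were higher (3.03%) and 462 lower (3.81%) in SYK-KO EGF, and 17 reached a size of at least 1. Their median absolute difference was 0.38 with EGF and 0.12 untreated. A call in one condition and not in the other is no test of the difference: 311 of the 829 had an unadjusted p of the difference under 0.05, and none passed it after adjustment. The size of the group followed the libraries, from 392 without SYK-WT EGF replicate 2 to 1993 without SYK-WT replicate 1, and 201 of the 829 passed the adjusted test of the difference without SYK-WT replicate 1.

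Among the 829, the rises with the largest differences between conditions were FGF18, SLC25A29, NSMCE4A, UQCC3, E2F1, HOXD-AS2, HAPLN3, SOX2, NTN4 and CKAP2L. FGF18, a secreted fibroblast growth factor, had 19.04 and 20.2 FPKM in SYK-KO EGF, against 6.50 and 8.49 FPKM in SYK-WT EGF, and untreated 37.9 and 39.6 FPKM in SYK-KO, against 24.5 and 37.0 FPKM in SYK-WT. It was therefore lower with EGF than untreated in both genotypes and lowest in SYK-WT EGF. E2F1, the transcription factor that switches on S-phase genes, had 12.04 and 12.6 FPKM in SYK-KO EGF, against 7.64 and 7.49 FPKM in SYK-WT EGF (0.63 ± 0.12, adjusted p = 0.0039), and untreated 11.8 and 12.8 FPKM in SYK-KO, against 11.0 and 14.6 FPKM in SYK-WT. The stem cell factor SOX2 had 5.96 and 6.82 FPKM in SYK-KO EGF, against 2.85 and 3.23 FPKM in SYK-WT EGF, and NTN4, a netrin of basement membranes, 17.1 and 19.6 FPKM, against 10.0 and 10.1 FPKM. In 9 of the 10 rises both SYK-WT EGF libraries stood below the other 6, the exception being UQCC3. The rises of UQCC3, HOXD-AS2 and SLC25A29, between 0.58 and 1.24, lost their calls without at least 3 of the libraries taken singly.

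The falls chosen in the same way were FAM25A, NPTX1, CXCL8, SNCG, TCEAL1, SEMA7A, PKIA, NQO2, RPP40 and S100A13, and in 9 of them the picture was the converse, with SYK-WT EGF above the other 3 groups. FAM25A, which has near-identical copies and is uncertain for that reason, had 81.8 and 80.1 FPKM in SYK-KO EGF, against 363 and 313 FPKM in SYK-WT EGF, and untreated 43.2 and 35.3 FPKM in SYK-KO, against 75.6 and 34.2 FPKM in SYK-WT. NPTX1, a neuronal pentraxin, had 1.77 and 1.55 FPKM in SYK-KO EGF, against 15.5 and 16.0 FPKM in SYK-WT EGF, and untreated 0.619 and 0.633 FPKM in SYK-KO, against 4.77 and 0.900 FPKM in SYK-WT. SEMA7A, a membrane-anchored semaphorin, had 45.3 and 43.3 FPKM in SYK-KO EGF, against 63.4 and 70.2 FPKM in SYK-WT EGF, with 17.4 and 17.7 FPKM in untreated SYK-KO and 16.8 and 15.4 FPKM in untreated SYK-WT. The exception was RPP40, a subunit of RNase P, where SYK-WT EGF (9.89 and 10.8 FPKM) overlapped untreated SYK-WT (10.9 and 6.14 FPKM). Among these falls, only TCEAL1 and RPP40 lost their calls under an alternative. TCEAL1 did so when any EGF library was left out, with no filter and with upper-quartile scaling, at -0.68 to -0.46. RPP40 did so without SYK-KO EGF replicate 2 (-0.84) or SYK-WT EGF replicate 2 (-0.99). The authors' q-values with EGF were 0.257 for S100A13 and 0.0705 for RPP40, and under 0.05 for the other falls listed.

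**Figure D3:**
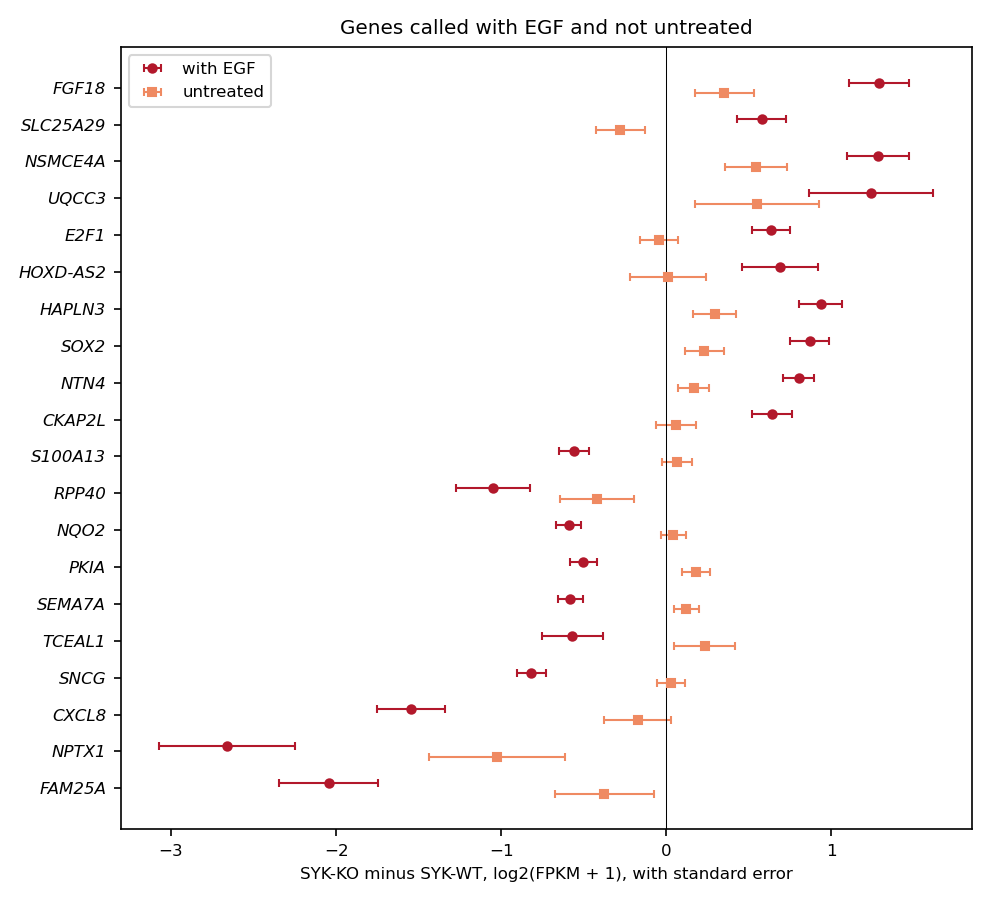
SYK-KO minus SYK-WT difference of log2(FPKM + 1) with its standard error, with EGF (red circles) and untreated (orange squares), for the 10 rises and 10 falls among the 829 loci whose difference between conditions was largest. Differences with EGF ran from -2.66 for NPTX1 to 1.29 for FGF18, and those of E2F1, SNCG, NQO2 and S100A13 lay within 0.06 of 0 untreated.

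CXCL8, the neutrophil chemokine interleukin-8 and a well-known AP-1 and NF-kappaB target, had 8.41 and 10.3 FPKM in SYK-KO EGF, against 31.9 and 26.5 FPKM in SYK-WT EGF. Untreated it had 5.09 and 5.99 FPKM in SYK-KO, against 8.20 and 4.87 FPKM in SYK-WT, where the groups overlapped. It was 3.13-fold lower in SYK-KO EGF (-1.55 ± 0.20, adjusted p = 0.00098), and the difference between the conditions was -1.37 (adjusted p = 0.288). Its RefSeq promoter on GRCh38.p14 (chr4:73740319-73740618, plus strand, 250 bases before to 50 after the start) holds 1 match of the AP-1 letters TGANTCA. These letters are a palindrome, were searched on both strands and are shown in capitals. CXCL8 was picked from the 829 for its textbook AP-1 site.

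CXCL8: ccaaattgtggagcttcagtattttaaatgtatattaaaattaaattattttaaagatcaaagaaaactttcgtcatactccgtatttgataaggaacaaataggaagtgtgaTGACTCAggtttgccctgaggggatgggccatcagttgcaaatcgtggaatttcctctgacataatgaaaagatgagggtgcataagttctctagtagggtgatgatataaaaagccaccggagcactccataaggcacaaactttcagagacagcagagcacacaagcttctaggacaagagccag

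A match is a description of the letters and not a measured binding site. TGANTCA stood in 4.37% of the 9362 promoters of tested single-symbol genes, in 9 of 174 promoters (5.17%) of genes that rose by at least 1 in SYK-KO EGF and in 7 of 103 promoters (6.80%) of those that fell by at least 1. It stood in 0 of the 4 promoters found for the tested kallikrein-related peptidases, that of KLK6 among them.

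Genes of cell division were higher in SYK-KO EGF. Over all loci 21.1% rose and 22.5% fell with EGF, and 20.3% rose and 20.2% fell untreated. The 829 held 6.84% of all loci. Of 25 FOXM1 and G2/M genes, all tested, 18 rose with EGF and none fell, with a median of 0.50, whereas untreated 10 rose and 2 fell, with a median of 0.24; the median over all tested loci was -0.02 with EGF and -0.01 untreated. FOXM1, a transcription factor that drives G2/M genes, had 12.6 and 13.6 FPKM in SYK-KO EGF, against 7.30 and 7.55 FPKM in SYK-WT EGF (0.74 ± 0.08, adjusted p = 0.000501). It had 16.0 and 15.4 FPKM in untreated SYK-KO, against 9.68 and 11.2 FPKM in untreated SYK-WT (0.54), so the order of the genotypes was the same in both conditions. NEK2, a centrosomal kinase, had 23.8 and 20.7 FPKM in SYK-KO EGF, against 10.4 and 9.85 FPKM in SYK-WT EGF (1.06). TPX2, a spindle assembly factor, UBE2C, which charges ubiquitin for the anaphase-promoting complex, and BUB1, a spindle checkpoint kinase, rose by 0.65, 0.70 and 0.50. The 7 members not called, among them AURKA, CENPE and CENPF, had differences between -0.13 and 0.21. Across all alternatives 14 to 21 members rose with EGF and none fell, and 7 of the 25 belonged to the 829.

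Of 27 S-phase and DNA replication genes, all tested, 16 rose and 1 fell with EGF, with a median of 0.33, and untreated 3 rose and 2 fell, with a median of 0.06. Over all loci 21.1% rose and 22.5% fell with EGF, and 20.3% rose and 20.2% fell untreated. Among the 829, which held 6.84% of all loci, were 13 of the 27. CDT1, the licensing factor that loads the MCM helicase, had 19.3 and 20.6 FPKM in SYK-KO EGF, against 7.48 and 7.30 FPKM in SYK-WT EGF (1.32 ± 0.13, adjusted p = 0.000333). CCNE1, the cyclin of the G1 to S transition, had 78.0 and 74.3 FPKM in SYK-KO EGF, against 53.6 and 49.5 FPKM in SYK-WT EGF, and untreated 49.9 and 50.7 FPKM in SYK-KO, against 43.9 and 50.4 FPKM in SYK-WT. TYMS, thymidylate synthase, and RFC4, a clamp loader subunit whose locus is also given to EIF4A2 and several small RNAs, rose by 0.83 and 0.70. The single fall was MCM2, a subunit of the replicative helicase, at -0.56. No gene of either list passed the test of the difference over all genes, although 8 of the 25 and 10 of the 27 had an unadjusted p under 0.05. The share of all loci with such an unadjusted p was 8.83%.

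By library, SYK-WT EGF stood apart in both lists. The median member deviated from its mean over the 8 libraries by 0.022 and 0.023 in SYK-KO EGF for the S-phase genes, against -0.206 and -0.279 in SYK-WT EGF; untreated SYK-KO had 0.126 and 0.176 and untreated SYK-WT -0.013 and 0.159. The 2 untreated SYK-WT libraries were thus unlike each other, and the untreated count of S-phase rises was 9 once SYK-WT replicate 2 was left out and 3 once SYK-WT replicate 1 was. The count of S-phase rises with EGF was 10 without SYK-WT EGF replicate 2 and 21 without either untreated SYK-WT library.

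**Figure D4:**
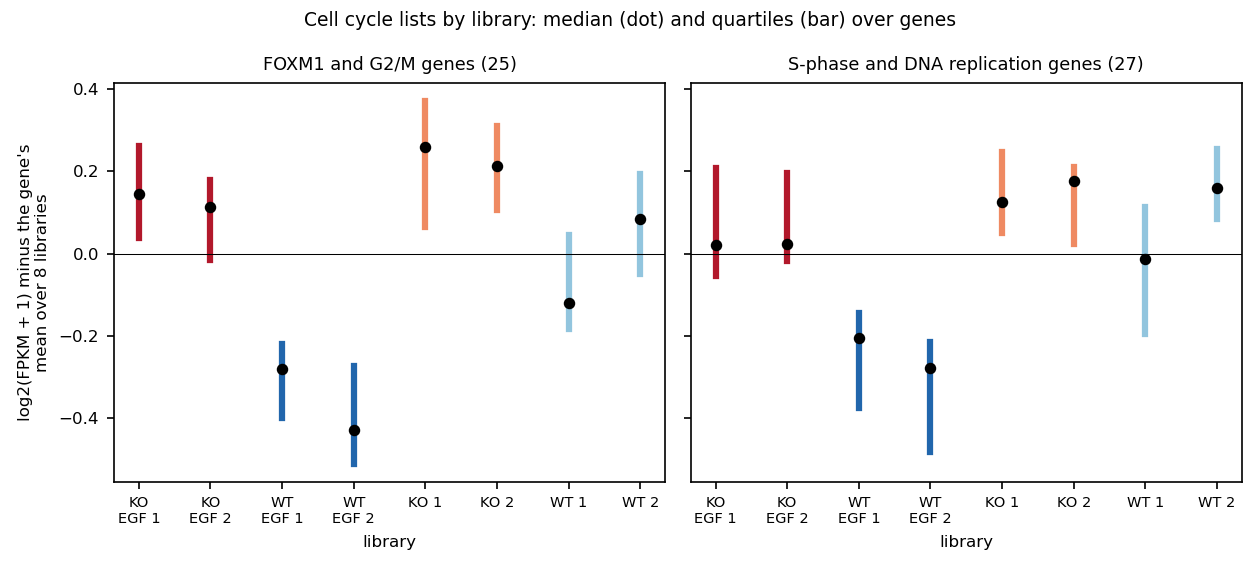
Median (dot) and quartiles (bar) over the genes of each list of log2(FPKM + 1) minus the gene's mean over the 8 libraries, by library, with the SYK-KO EGF and SYK-WT EGF libraries at the left. Both SYK-WT EGF libraries lie below the other 6 in both lists, and SYK-WT replicate 1 lies below SYK-WT replicate 2.

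Promoters of G2/M genes often carry the cell cycle homology region (CHR), a short element bound by the repressor and activator complexes that time them. Its letters TTTGAA, searched on both strands, stood in 10 of the 20 G2/M genes' promoters found in the RefSeq table (50%), against 9.28% of promoters of tested genes and 1 of 23 promoters (4.35%) of the S-phase list. They overlapped the AP-1 letters in 64 of all 27305 promoters searched. The promoters of CCNB2, cyclin B2, and PLK1, a mitotic kinase, are shown as examples with the letters in capitals, chr15:59104896-59105195 and chr16:23678639-23678938, both on the plus strand of GRCh38.p14.

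CCNB2: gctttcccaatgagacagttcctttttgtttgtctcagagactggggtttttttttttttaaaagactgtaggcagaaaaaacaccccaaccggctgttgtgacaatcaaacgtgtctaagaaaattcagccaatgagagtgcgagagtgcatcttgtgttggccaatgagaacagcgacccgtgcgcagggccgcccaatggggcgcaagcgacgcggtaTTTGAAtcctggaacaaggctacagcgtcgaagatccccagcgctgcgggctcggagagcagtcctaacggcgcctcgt

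PLK1: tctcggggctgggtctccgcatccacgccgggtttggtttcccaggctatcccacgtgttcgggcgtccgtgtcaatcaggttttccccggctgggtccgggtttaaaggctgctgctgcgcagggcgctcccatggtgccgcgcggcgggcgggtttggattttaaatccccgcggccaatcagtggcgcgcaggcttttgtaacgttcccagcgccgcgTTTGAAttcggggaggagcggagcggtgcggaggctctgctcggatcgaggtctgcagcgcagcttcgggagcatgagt

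CCNB2 had 27.3 and 24.6 FPKM in SYK-KO EGF, against 18.5 and 14.9 FPKM in SYK-WT EGF, and PLK1 31.8 and 30.2 FPKM, against 24.0 and 22.6 FPKM; both were called higher. The letters did not sort the list by its calls, since 6 of the 10 members with them rose in SYK-KO EGF, against 8 of the 10 members whose promoters lack them.

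All 5 kallikrein-related peptidases tested of 15 listed were lower in SYK-KO in both conditions, with a median of -1.50 with EGF and -0.85 untreated. Over all loci 22.5% were called lower with EGF and 20.2% untreated. KLK6, a serine protease that ovarian carcinomas often secrete (hg19 chr19:51461887-51472929), had 44.6 and 51.4 FPKM in SYK-KO EGF, against 556 and 533 FPKM in SYK-WT EGF, and untreated 49.2 and 57.6 FPKM in SYK-KO, against 319 and 260 FPKM in SYK-WT. Its level was thus about the same in SYK-KO with and without EGF and higher in SYK-WT EGF than in untreated SYK-WT. KLK6 was 11.3-fold lower in SYK-KO cells with EGF (-3.48 ± 0.12, adjusted p = 2.46e-06) and 5.42-fold lower untreated, and the difference between conditions was -1.07 (adjusted p = 0.147). KLK10 had 0.533 and 0.588 FPKM in SYK-KO EGF, against 4.20 and 3.40 FPKM in SYK-WT EGF, and 0.574 and 0.453 FPKM in untreated SYK-KO, against 0.940 and 1.21 FPKM in untreated SYK-WT. It passed the filter on low values only through SYK-WT libraries, where it is high, so that it was tested is no sign of a difference. With the filter at 5 FPKM in 2 libraries, the count of kallikreins that fell with EGF was 3. KLK8 had 55.8 and 61.5 FPKM in SYK-KO EGF, against 172 and 164 FPKM in SYK-WT EGF, while KLK7 and KLK13 fell by 1.02 and 0.92. Of these 5, 4 had an unadjusted p of the difference between conditions under 0.05, each with the larger fall under EGF. The share of all loci with such an unadjusted p was 8.83%.

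The plasminogen activation and thrombomodulin system, with PLAT counted in, held 13 tested genes of 14. Of these 3 rose and 6 fell with EGF, beside 21.1% and 22.5% of all loci. Untreated 6 rose and 1 fell, beside 20.3% and 20.2% of all loci. An unadjusted p of the difference under 0.05 was found for 7 of them, PLAT included, beside 8.83% of all loci. TFPI, an inhibitor of coagulation, had 9.62 and 8.21 FPKM in SYK-KO EGF, against 2.37 and 2.28 FPKM in SYK-WT EGF (1.57), and rose by as much untreated (1.52). The protein C receptor PROCR fell to 22.0 and 19.4 FPKM in SYK-KO EGF, against 44.3 and 45.7 FPKM in SYK-WT EGF, and by a similar amount untreated. ANXA2, which gathers plasminogen and its activator at the cell surface, was called with EGF (-0.55 ± 0.07, adjusted p = 0.0011) and not untreated (-0.12, adjusted p = 0.234). Thrombomodulin (THBD) and the urokinase receptor PLAUR, named after their values were seen, had the same form: THBD had 51.2 and 47.9 FPKM in SYK-KO EGF, against 73.5 and 74.3 FPKM in SYK-WT EGF, and PLAUR 53.3 and 52.2 FPKM, against 72.0 and 69.9 FPKM. SERPINE2, a protease inhibitor that blocks plasminogen activators, was higher in SYK-KO in both, by 0.60 with EGF and 1.42 untreated. Among 13 tested matrix metalloproteinases, TIMPs and ADAM sheddases 4 rose and 6 fell with EGF, beside 21.1% and 22.5% of all loci. TIMP3, an inhibitor of metalloproteinases, fell to 15.2 and 16.0 FPKM in SYK-KO EGF, against 52.9 and 55.0 FPKM in SYK-WT EGF, and MMP14, a membrane-anchored collagenase, to 129 and 133 FPKM, against 236 and 253 FPKM.

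**Figure D5:**
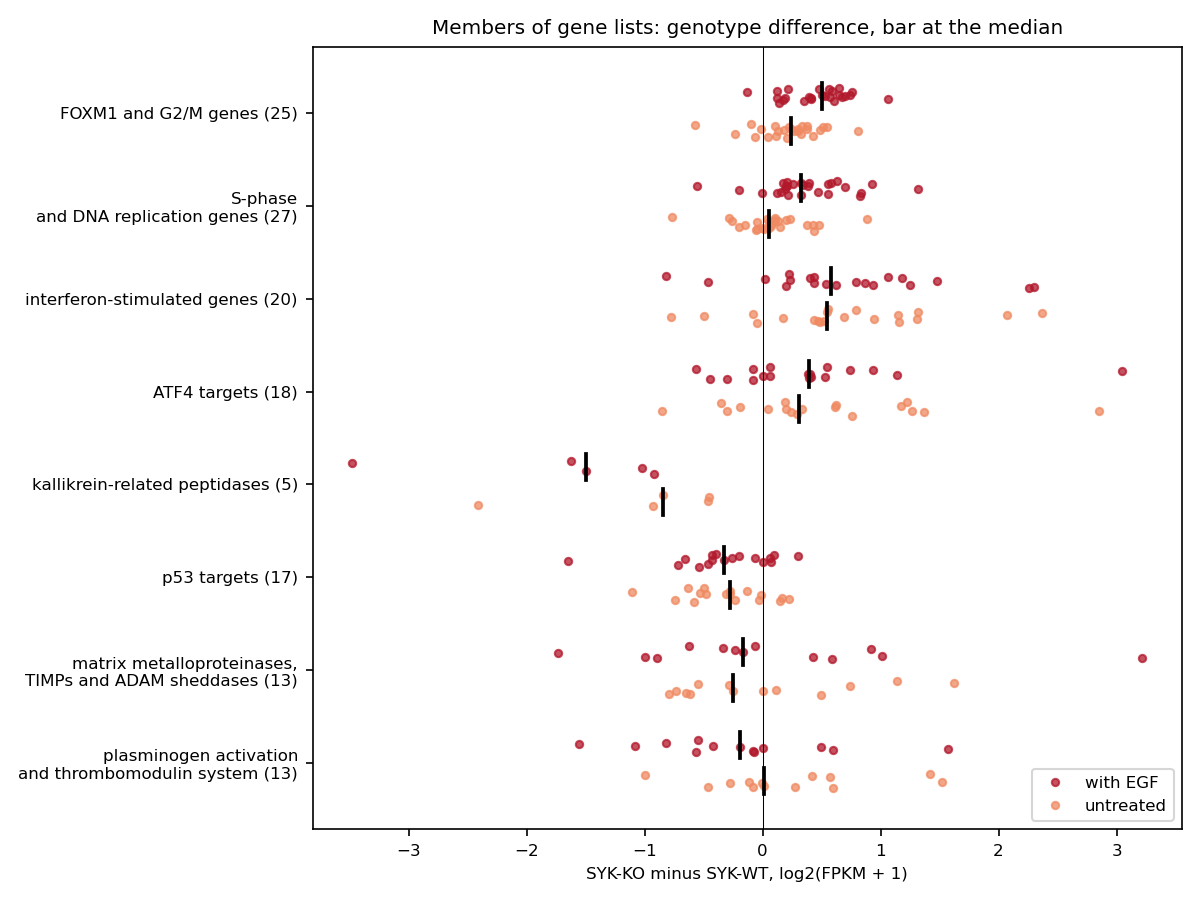
SYK-KO minus SYK-WT difference of log2(FPKM + 1) for the tested members of 8 gene lists, with EGF (red) and untreated (orange), and a black bar at each median. The medians of the G2/M, S-phase and kallikrein lists lie farther from 0 with EGF (0.50, 0.33 and -1.50) than untreated (0.24, 0.06 and -0.85), whereas those of interferon-stimulated genes (0.58 and 0.55) and p53 targets (-0.33 and -0.27) lie closer together.

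Many of the largest differences were as large without EGF. The 12 largest rises in SYK-KO EGF with a mean of 5 FPKM or more in SYK-KO EGF were CXCL5, EIF4EBP1, HBE1, MMP1, EPHX1, FKBP10, NUPR1, DOK5, SYNPO, KRT16P2, NMU and WLS. CXCL5, a neutrophil chemokine, had 34.0 and 34.2 FPKM in SYK-KO EGF and was listed at 0 and 0.0161 FPKM in SYK-WT EGF, and untreated it had 20.3 and 19.97 FPKM in SYK-KO and was listed at 0 in both SYK-WT libraries. The q-value for CXCL5 with EGF in the authors' deposited table was 0.487, unlike the adjusted p of 1.75e-08 found here. CXCL5 passed the filter on low values only through SYK-KO libraries, where it is high, so that it was tested is no sign of a difference. EIF4EBP1, a repressor of cap-dependent translation, had 65.5 and 57.1 FPKM in SYK-KO EGF, against 0.734 and 0.957 FPKM in SYK-WT EGF (5.08), with 5.18 untreated. DOK5, a docking adaptor of receptor tyrosine kinases, had 5.50 and 5.60 FPKM in SYK-KO EGF, against 0.0940 and 0.0974 FPKM in SYK-WT EGF, and untreated 5.46 and 4.89 FPKM in SYK-KO, against 0.221 and 0.335 FPKM in SYK-WT. DOK5 too passed the filter only through SYK-KO libraries. NUPR1, a stress-induced chromatin protein, had 172 and 178 FPKM in SYK-KO EGF, against 19.5 and 20.99 FPKM in SYK-WT EGF. KRT16P2 is a keratin pseudogene and may share reads with KRT16, while the loci of EPHX1 and WLS are also given to neighbours with rows of their own; the authors' deposited table gave WLS a q-value of 0.109 with EGF.

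The 12 largest falls were ALDOC, HCAR1, YPEL3, SLC1A6, MUC5AC, KLK6, S100A9, TMEM132D-AS1, MSLN, S100A14, NPTX1 and FLNC. ALDOC, an aldolase of glycolysis, had 3.58 and 5.27 FPKM in SYK-KO EGF, against 100 and 111 FPKM in SYK-WT EGF, and was 23.8-fold lower with EGF and 19.2-fold lower untreated. The lactate receptor HCAR1 was listed at 0 and 0.0383 FPKM in SYK-KO EGF, against 16.2 and 15.9 FPKM in SYK-WT EGF, and the authors' deposited table gave it a q-value of 0.172. MUC5AC, a secreted gel-forming mucin, had 0.533 and 0.511 FPKM in SYK-KO EGF, against 17.9 and 17.6 FPKM in SYK-WT EGF, and untreated 0.134 and 0.137 FPKM in SYK-KO, against 6.85 and 9.84 FPKM in SYK-WT. S100A9, a calcium-binding inflammatory protein, had 36.3 and 39.3 FPKM in SYK-KO EGF, against 305 and 375 FPKM in SYK-WT EGF. MSLN, the cell surface glycoprotein mesothelin, had 0.262 and 0.184 FPKM in SYK-KO EGF, against 8.63 and 8.27 FPKM in SYK-WT EGF. MUC5AC and MSLN passed the filter on low values only through SYK-WT libraries, where they are high, so that they were tested is no sign of a difference. Of the 24, none was called for the difference between conditions. By a looser limit of 0.2, not set beforehand, the adjusted p (limma) picked out MMP1, KLK6, CXCL5, S100A14 and FLNC. Each had the larger size under EGF on the log2(FPKM + 1) scale. CXCL5 was nearly absent from SYK-WT in both conditions, so its sizes follow its level in SYK-KO. For MMP1 the difference between conditions was 0.48 with a pseudocount of 0.1.

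The counts of the lists that follow are read against the 21.1% of all loci that rose and the 22.5% that fell, and a count near these shares is no result about a list. They also move with the libraries: over all loci 2952 to 3372 were called without 1 of the EGF libraries and 6829 to 6835 without 1 of the untreated SYK-WT libraries. Of 10 tested ERBB receptors, ligands and inhibitors 2 rose and 4 fell with EGF. EGFR had 45.9 and 55.2 FPKM in SYK-KO EGF, against 54.3 and 58.1 FPKM in SYK-WT EGF, where the ranges overlapped (-0.16 ± 0.15, adjusted p = 0.438). Its partner receptors ERBB2 and ERBB3 were lower, with 32.1 and 36.6 FPKM against 46.3 and 49.9 FPKM and with 16.9 and 18.0 FPKM against 25.1 and 27.1 FPKM. ERBB2 lost its call without SYK-KO EGF replicate 1 or SYK-WT EGF replicate 2. Of the EGFR ligands, AREG, which is listed at 2 loci that both fell, had at the higher of them 159 and 155 FPKM in SYK-KO EGF, against 398 and 392 FPKM in SYK-WT EGF, TGFA fell by 0.54 and HBEGF rose by 0.68. In the list of 11 tested ERK feedback inhibitors 3 rose and 2 fell with EGF, among them SPRY1, an inhibitor of RAS signalling, which rose by 1.11, and the ERK phosphatase DUSP6, which fell by 0.59. Of 16 AP-1 subunits and early response factors 3 rose and 4 fell: the stress factor ATF3 rose by 0.96 and IER2 by 0.53, whereas MYC fell by 0.78, JUN by 0.63 and FOSB by 0.93. These genes had the same direction untreated, where JUN fell by 1.02. In the SYK pathway and Src kinases 2 of 18 rose and 3 fell, among them the Src-family kinase FYN, which rose to 5.35 and 4.97 FPKM in SYK-KO EGF, against 1.16 and 0.908 FPKM in SYK-WT EGF. Of the 16 docking adaptors tested 6 rose and 5 fell. Leaving out 1 library gave 3 to 7 rises among the docking adaptors, 1 to 4 in the SYK pathway and 1 to 3 among the ERK feedback inhibitors, and 2 to 5 falls among the AP-1 and early response factors.

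Interferon-stimulated genes were higher in SYK-KO whether or not EGF was given: 14 of 20 tested rose and 2 fell with EGF (median 0.58), and 15 rose and 2 fell untreated (median 0.55). IFI27 had 423 and 437 FPKM in SYK-KO EGF, against 97.4 and 76.9 FPKM in SYK-WT EGF, and OAS2, an enzyme that activates RNase L, 10.3 and 10.8 FPKM, against 1.42 and 1.37 FPKM. The 2 falls were the transcription factors STAT2 and IRF7. Targets of p53 moved the other way, with 9 of 17 lower and none higher with EGF (median -0.33) and 8 lower and none higher untreated (median -0.27). PLK3, a stress-responsive kinase, had 4.28 and 3.84 FPKM in SYK-KO EGF, against 14.6 and 15.2 FPKM in SYK-WT EGF, and BTG2, an antiproliferative factor, 24.0 and 24.8 FPKM, against 39.0 and 39.0 FPKM. CDKN1A, the p53 target that inhibits cyclin-dependent kinases, and MDM2 were not called, at 0.10 and -0.26.

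Stress and metabolic lists were mixed. Of 18 ATF4 targets 9 rose and 3 fell with EGF, led by NUPR1 and by PHGDH, the first enzyme of serine synthesis, which rose to 112 and 104 FPKM in SYK-KO EGF, against 50.1 and 46.9 FPKM in SYK-WT EGF. Of 15 endoplasmic reticulum chaperones and related genes 6 rose and 1 fell, though only 3 rose when 1 of the EGF libraries was left out. In the 14 tested NRF2 targets 3 rose and 5 fell, with the haem oxygenase HMOX1 at 136 and 158 FPKM in SYK-KO EGF, against 38.1 and 39.5 FPKM in SYK-WT EGF, and the ferritin light chain FTL, which has many processed pseudogenes, at 506 and 498 FPKM, against 1490 and 1600 FPKM. None of 10 fatty acid synthesis genes rose and 5 fell, by 0.32 to 0.44, with ACACA, SCD and ACLY among them. In the cholesterol list 4 of 17 rose and 5 fell, and of 21 glycolysis and hypoxia genes 2 rose and 5 fell, beside 21.1% and 22.5% of all loci. Leaving out 1 library gave 0 to 4 rises and 3 to 9 falls in the glycolysis list, 2 to 6 falls in the cholesterol list and 3 to 7 falls in the fatty acid list. Of 17 NF-kappaB targets, chemokines and cytokines 6 rose and 5 fell with EGF: IL6 had 180 and 182 FPKM in SYK-KO EGF, against 81.3 and 78.0 FPKM in SYK-WT EGF, while CXCL1, which binds the same receptor as CXCL5 and CXCL8, had 42.4 and 47.3 FPKM, against 99.3 and 94.4 FPKM.

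Adhesion genes differed in both directions. Among 22 tested epithelial adhesion and tight junction genes 3 rose and 9 fell with EGF (0 to 4 and 6 to 12 when 1 library was left out), and E-cadherin (CDH1) had 30.7 and 35.6 FPKM in SYK-KO EGF, against 61.9 and 61.4 FPKM in SYK-WT EGF. In the mesenchymal list 3 of 9 rose and 2 fell. Vimentin (VIM) had 425 and 460 FPKM in SYK-KO EGF, against 135 and 128 FPKM in SYK-WT EGF, and the factor TWIST1 7.53 and 6.74 FPKM, against 1.97 and 1.97 FPKM, whereas fibronectin (FN1) had 1.55 and 1.87 FPKM, against 7.83 and 8.52 FPKM. Of 13 integrin subunits 3 rose and 4 fell, with ITGB3 at 29.9 and 38.2 FPKM in SYK-KO EGF, against 7.12 and 9.71 FPKM in SYK-WT EGF, and ITGB8 at 13.3 and 13.5 FPKM, against 36.5 and 36.2 FPKM. Of 14 YAP and TEAD targets 3 rose and 6 fell, CCN2 to 0.130 and 0.115 FPKM in SYK-KO EGF, against 3.77 and 4.56 FPKM in SYK-WT EGF. In 9 tested keratins 1 rose and 3 fell, and the calls of KRT16 and KRT18 were lost in 9 of 18 and 4 of 19 alternatives.

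The labelled cell type was checked against its markers. PAX8, a Müllerian lineage factor, had 222 and 234 FPKM in SYK-KO EGF, against 205 and 230 FPKM in SYK-WT EGF, where the ranges overlapped. NAPSA, an aspartic protease used to diagnose this tumour, was lower, with 1.19 and 1.26 FPKM in SYK-KO EGF, against 4.16 and 5.03 FPKM in SYK-WT EGF. Of 11 lineage markers tested 4 rose and 1 fell with EGF, though up to 5 fell when 1 library was left out, and VTCN1, an immune checkpoint protein, rose to 53.4 and 59.7 FPKM in SYK-KO EGF, against 11.6 and 15.4 FPKM in SYK-WT EGF. As to markers of other cells, none of 9 fibroblast and none of 9 endothelial markers reached the filter, with summed levels of 0.317 and 0.402 FPKM in SYK-KO EGF, against 0.117 and 0.157 FPKM in SYK-WT EGF for fibroblasts, and 0.692 and 0.718 FPKM, against 0.359 and 0.288 FPKM, for endothelium. COL3A1, DCN, LUM and THY1 were listed at 0 in all 8 libraries. Of 12 haematopoietic markers 2 were tested, CD68 and LAPTM5, neither called with EGF. The sum was 39.2 and 37.8 FPKM in SYK-KO EGF, against 38.3 and 41.5 FPKM in SYK-WT EGF. Most of it was CD68, with 31.0 and 31.1 FPKM in SYK-KO EGF, against 31.3 and 34.4 FPKM in SYK-WT EGF. PTPRC reached at most 0.0216 FPKM in any library, and TYROBP was listed at 0 throughout. Of 6 mesothelial markers 4 were tested, 2 higher and 2 lower, with sums of 12.7 and 12.8 FPKM in SYK-KO EGF, against 17.0 and 17.0 FPKM in SYK-WT EGF. MSLN, among the lower, passed the filter only through SYK-WT libraries, where it is high. In bulk RNA, fewer cells in a given state and less RNA per cell cannot be told apart, which touches the cell cycle lists above all.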

How the data were processed

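RNA from OVISE cells was profiled in 8 paired-end libraries, 2 in each of 4 groups taken from the sample titles. FPKM per locus and library were computed by the authors with the Cufflinks suite, and TopHat, Cufflinks and Cuffdiff 2.2.1.3 with the build hg19 are named in the submitters' processing notes. The sources used here give neither the scaling of libraries nor the strand of the reads. The q-values (adjusted p-values) printed are those of the authors' deposited table. Overlapping and antisense genes, shared loci and near-identical copies are uncertain.

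Symbols were found for 27559 of 27757 loci (99.3%) from RefSeq and GENCODE annotation. Values were fitted as log2(FPKM + 1), with a pseudocount of 1, in 1 model of all 8 libraries in limma (version 3.58.1; R 4.3.3), using its mean-variance trend (4 residual degrees of freedom, prior 3.87), after a filter of at least 1 FPKM in 2 libraries. FPKM are not counts, so no count test was run. Two-sided p-values underwent Benjamini-Hochberg adjustment over the 12112 loci, with calls below 0.05. Other computation used pandas 2.3.3, matplotlib 3.10.9 and python 3.11.15. The fit was tested on simulated data. Depth, estimated from the steps of low FPKM, ran from about 22800000 to 26900000 fragments a library, an estimate that assumes scaling of FPKM to the library's own fragments.

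Named genes were the 12 largest rises and 12 largest falls in which the higher mean reached 5 FPKM and all 4 pairs of libraries moved alike, leaving out rows that name a small RNA or several symbols (a row naming 1 gene stays, even where its locus is also given to other rows). To these came 10 rises and 10 falls called with EGF and not untreated, SYK, EGFR, ERBB2, ERBB3, KLK6, MMP1, FOXM1, DOK5 and genes called for the difference, and up to 5 members of a described list with the smallest adjusted p. Genes with an adjusted p of the difference under 0.1, opposite calls, THBD, PLAUR, CCNB2, PLK1 and other list members outside these limits were chosen after their values were seen. The comparison, its 29 lists and their members were chosen with earlier results of these data known. A list is described by its counts and median beside those of all loci, with no set test. Promoters (250 bases before to 50 after the start) are those of RefSeq on GRCh38.p14, and 9362 of 11667 tested single-symbol genes had one. Alternatives tried were other pseudocounts, filters, scalings, weights and designs, the replicate block and leaving out each library. The values of 1 lineage marker are not reported here.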

Additional observations from a re-analysis of the deposited data

Results flagged for a closer look

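PLAT, which encodes tissue-type plasminogen activator, stood out because its genotype difference under EGF differed from the untreated one by a test of the difference itself. It was lower in SYK-KO with EGF (-1.56) and higher in SYK-KO untreated (0.59), a difference of -2.15 on the log2(FPKM + 1) scale (adjusted p = 0.00259, limma). The order of the genotypes was the same in all 4 pairs of libraries within a condition.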

How the results depend on the processing

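Of the counts of calls, the one with EGF (5277) kept within 1.5 times of its value under all alternatives other than leaving out an EGF library, with a range of 2952 to 6835 when a library was left out. The untreated count (4902) was 3007 when the fit held only the compared groups and 2460 to 5935 without a library. The 829 loci called with EGF and not untreated became 1374 with library quality weights, 1288 when the fit held only the compared groups and 392 to 1993 without a library. The test of the difference (1 call) gave 2 with library quality weights, with no filter, with upper-quartile scaling and with the crossed block, 3 without the mean-variance trend, 7 without loci of small RNAs or several symbols (added after seeing the data), and 0 to 867 without a library; the cause was not tested. SYK (-0.26, adjusted p = 0.0436) lost its call with no filter (-0.26, adjusted p = 0.0833), where more loci enter the adjustment, and with upper-quartile scaling (-0.22, adjusted p = 0.0749), and without any 1 of 6 of the libraries, running from -0.32 to -0.19. Signs turned for LAPTM5 with EGF (-0.0148 without SYK-KO EGF replicate 1, up to 0.1808 without SYK-KO EGF replicate 2) and for the difference of UQCC3 (-0.0365 without SYK-WT replicate 2, up to 1.4157 without SYK-WT replicate 1). A group left with 1 library was assumed to vary like the others. On the log2 scale the MMP1 difference between conditions was 0.48 with a pseudocount of 0.1. Scaling moved the median of all loci by at most 0.04.

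Replicate numbers were not taken as pairs, since deviations of same-numbered libraries correlated between -0.381 and 0.270 over the 6 pairs of groups, negatively in the 3 pairs with SYK-WT EGF. With the number as a replicate block 5688 loci were called with EGF, 5261 untreated, 939 with EGF and not untreated, and 1 for the difference, with SYK at an adjusted p of 0.0386. With the numbers of SYK-WT EGF crossed, a pairing chosen after seeing the data, the counts were 5199, 4839, 830 and 2.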
